A study of Homo sapiens with 8 samples.

Results

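Cancer-testis antigen families are groups of related genes, some of them near-identical copies, mostly on chromosome X. Their transcripts are normally found in male germ cells and in some tumours. Members were the array probes whose annotated gene symbol begins with MAGEA, MAGEB, MAGEC, GAGE, XAGE, PAGE, SSX or CTAG followed by a number. This gave 60 probes of 46 annotated genes, out of 50599 probes tested and 21524 genes. SSX2IP, with 2 of these probes, encodes a protein that binds SSX proteins and belongs to no family, so it is described on its own, which leaves 58 probes of 45 genes. The members were compared between 4 arrays labelled CFC1, from NGP cells that received CFC1 cDNA by lentivirus, and 4 mock arrays, from NGP cells that received the mock construct. Both groups were grown alike and selected with puromycin, and NGP is an established human neuroblastoma line. The sources used here do not give the promoter that drives the cDNA, the time after selection or the number of clones. They also do not say whether replicates are separate cultures, so the tests measure array-to-array spread, which could be purely technical.

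Transcription of most of these genes is known to be held off in somatic cells by methylation of CpG sites in their promoters, with Polycomb and other germ-line gene repressors acting beside it, and loss of that methylation is a known route to their activation in tumours. Because the proteins are displayed to T cells and are otherwise largely restricted to germ cells, they are studied as vaccine and T-cell targets. The MAGE proteins share a MAGE homology domain with which they bind and steer E3 ubiquitin ligases. The SSX proteins act as transcriptional repressors, and the GAGE, PAGE and XAGE proteins are small, acidic and largely disordered.

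Each value is the deposited log2-scale difference of an array from a baseline of that probe which is not stated. A value near 0 is therefore not an absence of transcript, and levels cannot be set against each other between probes. A difference is always the mean of the arrays labelled CFC1 minus the mock mean, with the standard error of the limma fit and n = 4 in each group. The families were chosen by their differences in this same contrast, so these are given as descriptions without a test, and the share of all probes called at an adjusted p below 0.05 is given with the count over all members and is the background for the family counts too.

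CFC1, the transduced gene, did not show the rise that the labels imply. Its probe gave 0.055, -0.688, -0.593 and -0.296 in CFC1 replicates 1 to 4, against 0.474, 1.101, 0.116 and -0.027 in mock replicates 1 to 4. The difference was -0.80 (95% interval -1.45 to -0.14), with a limma adjusted p of 0.0546 and an exact two-sided permutation p of 0.0571 over 70 arrangements, where the smallest possible p is 0.0286. The directions below follow the labels, which this probe does not bear out. Across the whole array 42.1% of probes were called, 20% as higher and 22.1% as lower, and the median difference of all probes was -0.13.

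The called probes of the families fell into groups with opposite directions. Of the 58 member probes, 26 were called higher in the arrays labelled CFC1, beside 20% of all probes, 8 were called lower, beside 22.1% of all probes, and 24 were not called. The 8 lower probes all belonged to MAGEA and MAGEB, and the 26 higher probes all belonged to MAGEC, GAGE, XAGE, PAGE and SSX. A difference of at least 2 was found for 21 higher probes, beside 3.19% of all probes, and for 7 lower probes, beside 3.05%. A difference of at least 4 upward was found for 12 probes, beside 0.872% of all probes. For the same 26 and 8 probes the 4 arrays of one group lay wholly outside the range of the other, beside 20.3% of all probes for higher and 22.3% for lower. The rule was proposed with these values known, so nothing is read from the counts.

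**Figure D1:**
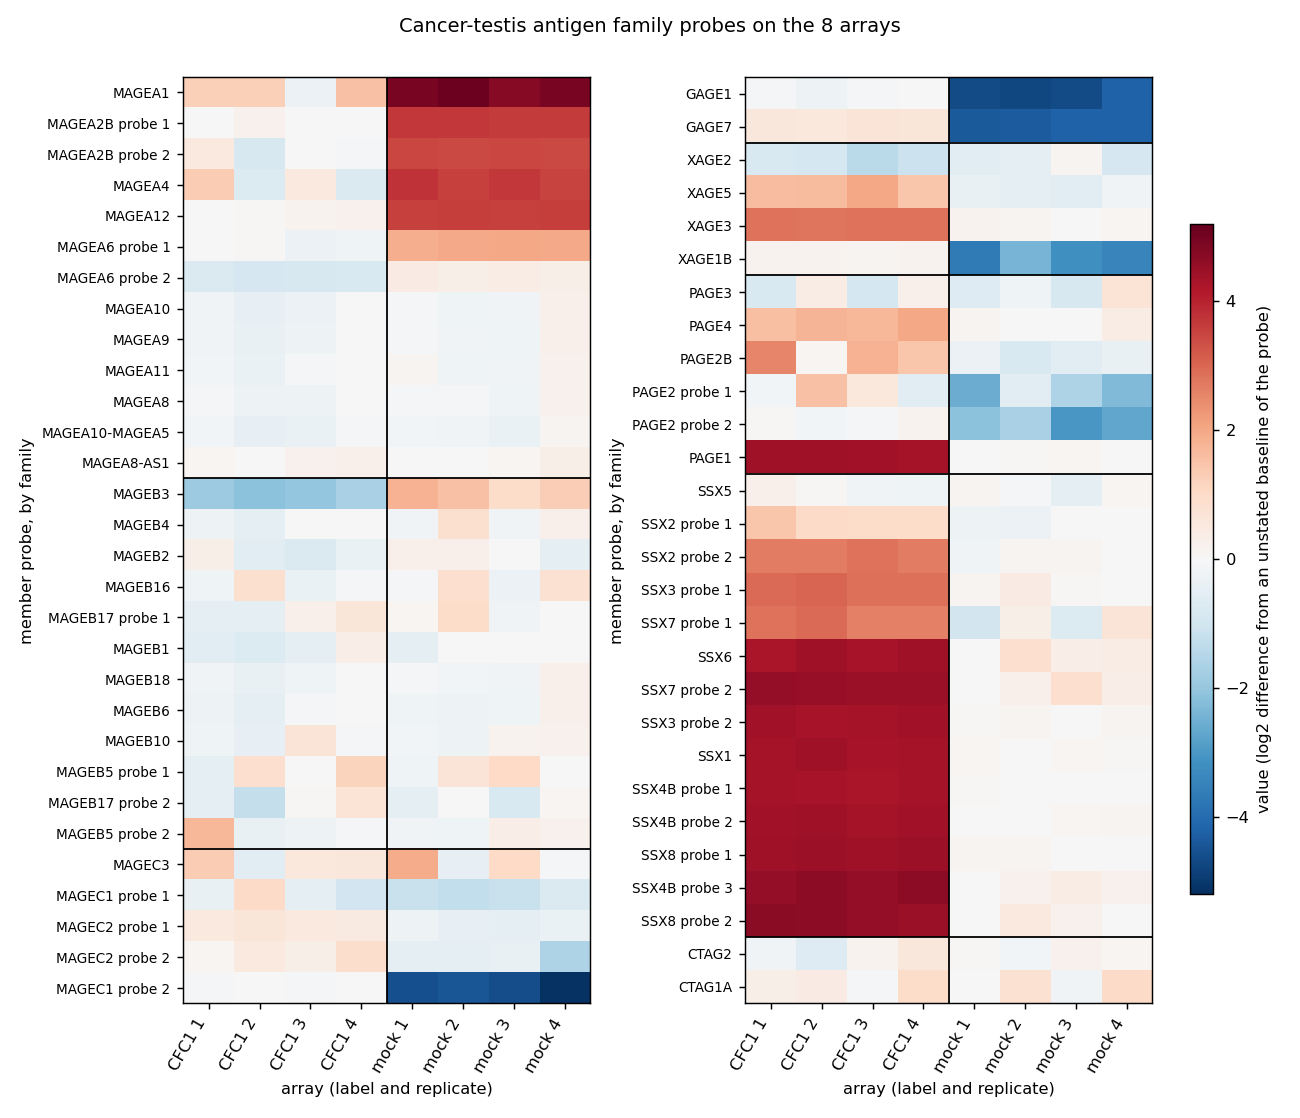
Values of the 58 member probes (rows, by family, probes of one gene numbered by increasing difference) on the 4 arrays labelled CFC1 and the 4 mock arrays (columns), as log2 differences from the baseline of the probe. Most SSX probes lie above 4 in the arrays labelled CFC1 and near 0 in the mock arrays, and the MAGEA2B, MAGEA4 and MAGEA12 probes average near 0 in the arrays labelled CFC1 and above 3 in the mock arrays.

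MAGEA genes encode the type I MAGE proteins that were found first as tumour antigens of melanoma, and they gave most of the lower values. Of 13 probes, 7 were called lower, 6 were not called and 0 were called higher, with a family median of -1.16 over probes and -0.164 over gene means. MAGEA1, the founding member, gave 1.26, 1.24, -0.29 and 1.51 in CFC1 replicates 1 to 4, against 4.94, 5.11, 4.75 and 4.93 in mock replicates 1 to 4. Every array labelled CFC1 was below every mock array, CFC1 replicate 3 lay apart from the rest of its group, and the difference of -4.00 (SE 0.38) had the largest size in the family. MAGEA2B, whose protein is a near copy of that of MAGEA2, was read by 2 probes. Its probe A_23_P148255 gave 0.028, 0.234, 0.032 and 0.00 in the arrays labelled CFC1, against 3.69, 3.66, 3.63 and 3.64 in the mock arrays, a difference of -3.58 (SE 0.062). Its probe A_33_P3411165 gave 0.51, -0.82, -0.027 and -0.11 in the arrays labelled CFC1, against 3.46, 3.43, 3.45 and 3.44 in the mock arrays, a difference of -3.56 (SE 0.25). Both probes separated the groups with no overlap, and the mock arrays spread less than the arrays labelled CFC1.

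Of the other MAGEA genes, 3 were lower, 4 followed a negative control spot and 2 did neither. MAGEA4, a frequent antigen of squamous and sarcoma tumours and a target of engineered T cells, averaged 0.08 ± 1.0 in the arrays labelled CFC1 and 3.64 ± 0.11 in the mock arrays (SD, n = 4 each). MAGEA12 averaged 0.12 ± 0.11 in the arrays labelled CFC1 and 3.57 ± 0.022 in the mock arrays, a difference of -3.45 (SE 0.063). The 2 probes of MAGEA6, which directs the TRIM28 ubiquitin ligase, were lower by unequal amounts, with differences of -2.08 (SE 0.089) and -1.16 (SE 0.052). Probes for MAGEA8, MAGEA9, MAGEA10 and the MAGEA10-MAGEA5 readthrough differed by between -0.164 and -0.129, and they tracked the control spot. That spot, 3xSLv1, gave -0.179, -0.393, -0.280 and -0.021 in the arrays labelled CFC1, against -0.106, -0.208, -0.215 and 0.242 in the mock arrays, a difference of -0.147. A probe was counted as tracking it when the root mean square gap over the 8 arrays was within 0.1. Such tracking was found for 6 of the 58 members, 4 of MAGEA and 2 of MAGEB, and for 12.4% of all probes, and 0 of these 6 were called. MAGEA11, known as a co-regulator of the androgen receptor, differed by -0.139 (SE 0.13), and the antisense RNA MAGEA8-AS1 by 0.033 (SE 0.094), and both lay outside the limit for tracking the spot and had overlapping groups.

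The stretches upstream of 3 MAGEA starts are shown because the first 2 genes were lower by about the same amount while the third moved with the negative control spot. They are the 250 bases before the RefSeq start in GRCh38.p14, on the plus strand of chromosome X, at chrX:152733507-152733756 for MAGEA12, chrX:151912224-151912473 for MAGEA4 and chrX:149880933-149881182 for MAGEA8. Capitals mark CpG sites.
MAGEA12: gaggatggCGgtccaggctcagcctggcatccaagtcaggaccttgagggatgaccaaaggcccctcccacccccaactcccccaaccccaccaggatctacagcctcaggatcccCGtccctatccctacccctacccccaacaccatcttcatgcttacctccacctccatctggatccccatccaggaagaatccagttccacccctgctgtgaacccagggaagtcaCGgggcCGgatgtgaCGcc
MAGEA4: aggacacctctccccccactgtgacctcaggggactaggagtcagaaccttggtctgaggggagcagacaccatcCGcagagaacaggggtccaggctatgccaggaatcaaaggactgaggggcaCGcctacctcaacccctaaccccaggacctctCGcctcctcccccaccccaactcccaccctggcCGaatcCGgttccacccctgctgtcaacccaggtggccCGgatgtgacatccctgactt
MAGEA8: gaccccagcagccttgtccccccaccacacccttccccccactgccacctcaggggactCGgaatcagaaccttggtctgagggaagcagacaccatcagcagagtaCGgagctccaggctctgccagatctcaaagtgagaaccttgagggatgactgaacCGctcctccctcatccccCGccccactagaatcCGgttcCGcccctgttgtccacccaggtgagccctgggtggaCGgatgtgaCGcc
The stretches hold 5, 6 and 8 CpG sites, in that order. The ETS-type motif CCGGAT, searched on both strands, occurred in 6 of the 7 MAGEA windows of 300 bases (250 before the start and 50 after it), against 7.06% of the 27305 gene windows in the RefSeq table. It was present upstream of all 3 genes shown and absent from the window of MAGEA6, which held the other ETS-type motif searched, CCGGAA. That second motif occurred in 1 of the 7 MAGEA windows and in 17.6% of all gene windows. CCGGAT was not particular to MAGEA. It also occurred in 3 of 9 MAGEB and 2 of 3 MAGEC windows, and in 0 of the GAGE, XAGE, PAGE and SSX windows. The motifs were chosen after the sequences were seen.

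MAGEB genes form a second MAGE cluster on the short arm of X, and MAGEB3 was the 1 member called. MAGEB3 gave -1.89, -2.12, -2.02 and -1.68 in the arrays labelled CFC1, against 1.80, 1.51, 0.95 and 1.28 in the mock arrays, with a difference of -3.31 (SE 0.19). All 4 arrays labelled CFC1 were below 0 and all 4 mock arrays were above it. The other 11 MAGEB probes lay between -0.36 and 0.22, and each of them overlapped between the groups. MAGEB4 gave -0.259, -0.479, -0.025 and 0.00 in the arrays labelled CFC1, against -0.187, 0.817, -0.192 and 0.246 in the mock arrays. MAGEB2 gave 0.318, -0.601, -0.765 and -0.335 in the arrays labelled CFC1, against 0.270, 0.252, 0.00 and -0.478 in the mock arrays. On the chromosome MAGEB2 and MAGEB4 are the measured genes next to MAGEB3, and neither was called, nor was MAGEB1 beyond them. The genes that flank this group, IL1RAPL1 at -1.05 and NR0B1 at -1.91, were both called lower. The 2 probes of MAGEB17 had opposite signs, with -0.24 (SE 0.34) for A_33_P3423504 and 0.054 (SE 0.42) for A_33_P3322594. In A_33_P3423504 the values were -0.51, -0.46, 0.25 and 0.61 in the arrays labelled CFC1, against 0.095, 0.96, -0.16 and -0.028 in the mock arrays. In A_33_P3322594 they were -0.52, -1.22, 0.048 and 0.69 in the arrays labelled CFC1, against -0.52, 0.00, -0.79 and 0.11 in the mock arrays. The spread within each group was wider than either difference. MAGEB18 and MAGEB6 tracked the negative control spot, with differences of -0.172 and -0.111, and MAGEB16, MAGEB1, MAGEB10 and the 2 probes of MAGEB5 differed by between -0.27 and 0.22.

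The called probes of MAGEC were higher, where those of MAGEA and the MAGEB3 probe were lower. Of 5 MAGEC probes, 3 were called higher, from MAGEC1 and MAGEC2, and 0 lower, with a median of 0.92. The probe A_23_P217178 of MAGEC1, a large MAGE protein frequent in myeloma, gave -0.047, -0.027, -0.048 and 0.00 in the arrays labelled CFC1, against -4.57, -4.47, -4.60 and -5.14 in the mock arrays. The difference was 4.67 (SE 0.14) with no overlap. The other MAGEC1 probe, A_33_P3241831, differed by 0.88 (SE 0.41), its groups overlapped and it was not called, so the 2 probes of this gene disagree in size. MAGEC2, which activates the TRIM28 ubiquitin ligase, gave 0.51, 0.63, 0.52 and 0.48 with probe A_23_P62099 in the arrays labelled CFC1, against -0.28, -0.43, -0.51 and -0.33 in the mock arrays. Its probe A_33_P3264593 gave 0.094, 0.488, 0.297 and 0.898 in the arrays labelled CFC1, against -0.451, -0.505, -0.392 and -1.59 in the mock arrays. Both MAGEC2 probes were higher without overlap, by 0.92 (SE 0.066) and 1.18 (SE 0.31), and mock replicate 4 was low in the second probe. The probe of MAGEC3 differed by -0.15 (SE 0.61) with overlapping groups.

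SSX genes encode nuclear repressors that associate with Polycomb complexes, and SSX1, SSX2 and SSX4 are the genes that fuse with SS18 in synovial sarcoma. Of 14 SSX probes, 13 were called higher in the arrays labelled CFC1 and 1 was not called, with a median difference of 4.20. SSX8, annotated in RefSeq as the pseudogene SSX8P, gave 4.71, 4.67, 4.58 and 4.50 with probe A_23_P431923 in the arrays labelled CFC1, against 0.0008, 0.487, 0.204 and 0.00 in the mock arrays. Its probe A_21_P0013844 gave 4.43, 4.44, 4.39 and 4.46 in the arrays labelled CFC1, against 0.143, 0.149, 0.0009 and 0.00 in the mock arrays. The probe A_23_P33875 of SSX4B, a near-identical copy of SSX4, gave 4.56, 4.67, 4.56 and 4.64 in the arrays labelled CFC1, against 0.00, 0.235, 0.378 and 0.237 in the mock arrays. In all 3 probes the arrays labelled CFC1 lay within a narrow band above 4 and the mock arrays lay below 0.5, and the differences were 4.44 (SE 0.12), 4.36 (SE 0.054) and 4.39 (SE 0.084). The other 2 SSX4B probes differed by 4.27 (SE 0.040) and 4.30 (SE 0.049), and SSX1 by 4.26 (SE 0.051). SSX6, annotated as the pseudogene SSX6P, differed by 3.94 (SE 0.17).

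Probes of one SSX gene did not always give one size. SSX3 differed by 4.25 (SE 0.049) with one probe and by 2.77 (SE 0.10) with the other, SSX7 by 4.15 (SE 0.17) and 2.92 (SE 0.37), and SSX2 by 2.67 (SE 0.084) and 1.23 (SE 0.13). All 6 of these probes separated the groups. SSX5 was the exception in the family: its probe gave 0.27, 0.063, -0.20 and -0.21 in the arrays labelled CFC1, against 0.13, -0.090, -0.49 and 0.097 in the mock arrays, with overlap and a difference of 0.069 (SE 0.17).

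The stretches upstream of SSX4B, SSX7 and SSX5 are shown because they are near copies of one another while the differences of their genes were 4.32 and 3.53 against 0.07, each as the mean of the probes of a gene. They are the 250 bases before the RefSeq start in GRCh38.p14 on the minus strand, at chrX:48411961-48412210 for SSX4B, chrX:52654901-52655150 for SSX7 and chrX:48196796-48197045 for SSX5, with CpG sites in capitals.
SSX4B: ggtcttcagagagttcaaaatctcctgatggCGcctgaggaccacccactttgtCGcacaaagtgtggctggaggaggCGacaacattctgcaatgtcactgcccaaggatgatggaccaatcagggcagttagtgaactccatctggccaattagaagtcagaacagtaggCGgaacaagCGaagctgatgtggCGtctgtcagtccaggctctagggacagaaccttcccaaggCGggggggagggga
SSX7: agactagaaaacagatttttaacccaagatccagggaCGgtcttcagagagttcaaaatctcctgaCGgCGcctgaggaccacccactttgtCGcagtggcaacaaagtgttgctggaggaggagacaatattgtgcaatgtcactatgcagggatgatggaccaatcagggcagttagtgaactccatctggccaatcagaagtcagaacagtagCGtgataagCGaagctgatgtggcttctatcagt
SSX5: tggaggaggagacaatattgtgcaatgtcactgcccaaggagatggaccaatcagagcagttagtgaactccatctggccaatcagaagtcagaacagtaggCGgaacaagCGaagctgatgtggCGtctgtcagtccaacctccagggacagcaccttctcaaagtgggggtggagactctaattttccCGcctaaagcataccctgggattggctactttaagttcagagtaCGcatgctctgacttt
The 3 starts are annotated at different places in the shared sequence. For that reason the 150 bases nearest the start of one gene were matched to the best place in the whole window of the other, on either strand. The best match over both directions and over all listed starts of the genes was kept. The stretches shown and the motif counts use the first listed start, so an identity need not belong to the stretches shown. SSX5 matched SSX2 at 94.0% of bases, SSX4B at 90.7% and SSX7 at 82.7%, and SSX4B matched SSX7 at 89.3%. The window of SSX1 matched those of the other SSX genes in the opposite orientation. The motif CCAAT, on either strand, occurred in 5 of 5 SSX windows of 300 bases, SSX5 among them, against 35.7% of all gene windows. It also occurred in 71.4% of MAGEA windows, 40% of PAGE, 25% of XAGE, 11.1% of MAGEB and 0% of MAGEC and GAGE.

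GAGE genes lie in a tandem array on X, and both measured members were higher in the arrays labelled CFC1. GAGE7, listed in RefSeq as GAGE12F, gave 0.59, 0.53, 0.68 and 0.63 in the arrays labelled CFC1, against -4.37, -4.33, -4.21 and -4.20 in the mock arrays. GAGE1 gave -0.12, -0.26, -0.097 and 0.00 in the arrays labelled CFC1, against -4.66, -4.75, -4.64 and -4.22 in the mock arrays. The differences were 4.89 (SE 0.061), the largest of the 58 members, and 4.45 (SE 0.12). If the scale is log2, they stand for fitted folds of 29.6 and 21.8. With quantile normalization the median difference of the family was 3.47 in place of 4.67. The upstream 150 bases of GAGE1 and GAGE12F were 100% identical by the same match, and the annotated probes of this array cannot be assigned to 1 copy by symbol.

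PAGE genes belong to the same wider family as GAGE, and 5 of 6 probes were called higher, 0 lower, with a median of 2.06. PAGE1 gave 4.40, 4.40, 4.35 and 4.34 in the arrays labelled CFC1, against 0.00, 0.053, 0.098 and 0.036 in the mock arrays, a difference of 4.33 (SE 0.043). PAGE2 gave 0.060, -0.16, -0.074 and 0.18 with probe A_33_P3420862 in the arrays labelled CFC1, against -2.15, -1.68, -3.01 and -2.68 in the mock arrays, a difference of 2.38 (SE 0.28). Its other probe, A_32_P70927, gave -0.12, 1.53, 0.55 and -0.54 in the arrays labelled CFC1, against -2.60, -0.58, -1.62 and -2.28 in the mock arrays, a difference of 2.12 (SE 0.58). PAGE1 spread least of these probes, and in A_32_P70927 the lowest array labelled CFC1 lay just above the highest mock array. This last call did not hold without CFC1 replicate 3 (adjusted p = 0.0521), mock replicate 1 (0.0536) or mock replicate 4 (0.0554). PAGE2B differed by 1.99 (SE 0.48) and PAGE4, a disordered protein of prostate and placenta, by 1.64 (SE 0.12). PAGE3 differed by 0.0032 (SE 0.45) with overlapping groups.

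The stretches upstream of GAGE1 and PAGE1 are shown because these genes of different families, which lie next to each other in the order of measured genes, had nearly the same difference. They are the 250 bases before the RefSeq start in GRCh38.p14, at chrX:49598763-49599012 on the plus strand for GAGE1 and chrX:49695985-49696234 on the minus strand for PAGE1, with CpG sites in capitals.
GAGE1: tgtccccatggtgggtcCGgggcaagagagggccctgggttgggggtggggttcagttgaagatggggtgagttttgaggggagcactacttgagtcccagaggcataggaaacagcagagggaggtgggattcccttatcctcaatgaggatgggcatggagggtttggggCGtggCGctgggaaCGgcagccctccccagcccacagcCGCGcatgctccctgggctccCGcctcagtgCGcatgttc
PAGE1: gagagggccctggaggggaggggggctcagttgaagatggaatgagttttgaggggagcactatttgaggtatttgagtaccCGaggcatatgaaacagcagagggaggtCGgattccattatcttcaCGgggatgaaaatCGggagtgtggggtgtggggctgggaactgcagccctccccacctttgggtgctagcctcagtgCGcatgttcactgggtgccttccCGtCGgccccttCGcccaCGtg
They hold 8 and 9 CpG sites, in that order. By the same best match over listed starts, the 150 bases nearest the start of these genes matched at 74.0%. No other pair of different families reached that value among measured genes.

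XAGE genes, first described as X-linked relatives of GAGE and PAGE in Ewing sarcoma, had 3 of 4 probes called higher, 0 lower, with a median of 2.40. XAGE1B, listed in RefSeq as XAGE1A, gave 0.20, 0.18, 0.14 and 0.18 in the arrays labelled CFC1, against -3.66, -2.44, -3.18 and -3.43 in the mock arrays, a difference of 3.35 (SE 0.24). XAGE3 gave 2.83, 2.80, 2.81 and 2.84 in the arrays labelled CFC1, against 0.198, 0.141, -0.0073 and 0.0963 in the mock arrays, a difference of 2.71 (SE 0.054). XAGE5 gave 1.60, 1.66, 1.99 and 1.44 in the arrays labelled CFC1, against -0.40, -0.47, -0.60 and -0.17 in the mock arrays, a difference of 2.08 (SE 0.14). All 3 separated the groups completely. XAGE2 averaged -1.05 ± 0.28 in the arrays labelled CFC1 and -0.44 ± 0.42 in the mock arrays (SD, n = 4 each), with overlap and no call.

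CTAG genes encode the antigens NY-ESO-1 and its relative LAGE-1, and neither probe was called. CTAG1A gave 0.29, 0.43, -0.088 and 0.94 in the arrays labelled CFC1, against 0.00, 0.80, -0.19 and 0.98 in the mock arrays. CTAG2 gave -0.19, -0.69, 0.18 and 0.58 in the arrays labelled CFC1, against 0.062, -0.14, 0.22 and 0.10 in the mock arrays. The groups overlapped in both, with differences of -0.0038 (SE 0.33) and -0.090 (SE 0.26). SSX2IP, whose protein works at centrosomes and cell junctions, had 1 probe on each side. Its probe A_33_P3285809 gave -0.087, -0.044, -0.030 and 0.00 in the arrays labelled CFC1, against -0.547, -0.594, -0.328 and -0.442 in the mock arrays. Its probe A_23_P201376 gave 0.023, 0.00, -0.109 and -0.097 in the arrays labelled CFC1, against 0.303, 0.254, 0.231 and 0.249 in the mock arrays. The differences, 0.44 (SE 0.067) and -0.31 (SE 0.049), were both called, so the array gives no single direction for this gene.

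**Figure D2:**
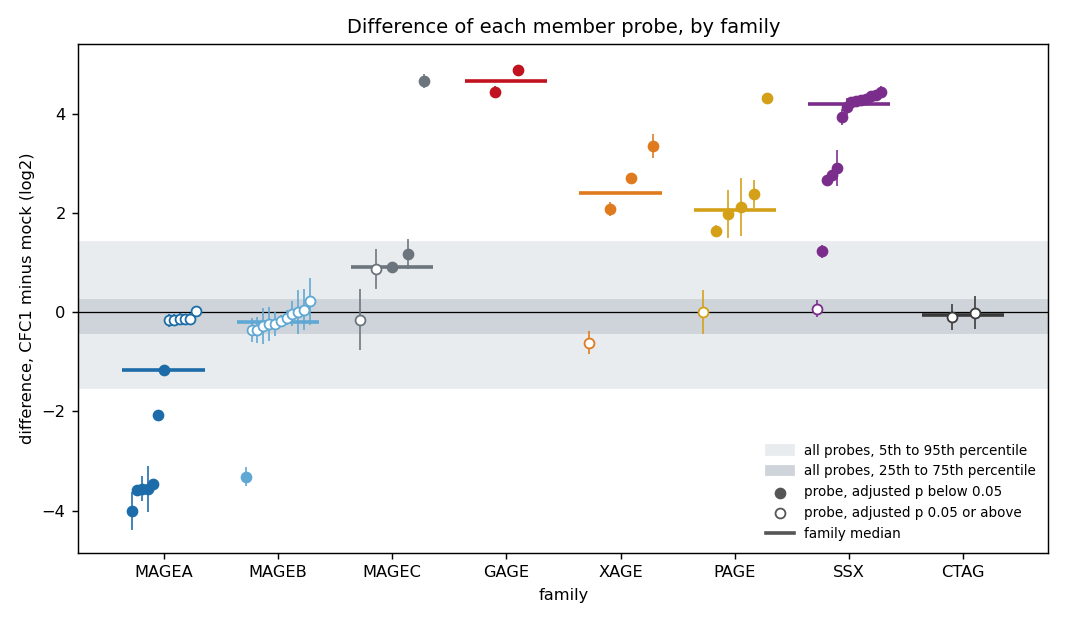
Difference of each member probe, arrays labelled CFC1 minus mock arrays (log2), by family, with bars of 1 standard error (n = 4 arrays a group) and a line at the family median, over bands for all 50599 probes. MAGEA and MAGEB reach down to -4.00 and -3.31, GAGE and SSX have medians of 4.67 and 4.20, and CTAG lies at 0 within its error.

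The scale of the values also differed between families. Most higher SSX probes and PAGE1 lay near 0 in the mock arrays and near 4.4 in the arrays labelled CFC1. GAGE1, XAGE1B, the A_23_P217178 probe of MAGEC1 and the A_33_P3420862 probe of PAGE2 lay near 0 in the arrays labelled CFC1 and below it in the mock arrays. GAGE7 averaged 0.61 in the arrays labelled CFC1 and -4.28 in the mock arrays. The A_32_P70927 probe of PAGE2 spread to both sides of 0 in the arrays labelled CFC1 (mean 0.35, SD 0.90) and averaged -1.77 in the mock arrays. MAGEB3 was below 0 in the arrays labelled CFC1 and above 0 in the mock arrays. Since the baseline is not stated, which group lies near 0 says nothing of which expresses the gene. The median SD over the member probes was 0.169 in the arrays labelled CFC1 and 0.223 in the mock arrays, beside 0.159 and 0.201 over all probes.

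Near-identical upstream sequence did not come with one size of difference. Promoter windows were in the RefSeq table for 35 of the 45 genes. In the match of 150 bases, 17 pairs of measured genes had an identity of 80% or more, with a median gap between the differences of the pair of 1.27, and 8 of these 17 gaps were below 1. The 21 pairs from 65% to 80% had a median gap of 1.61, with 8 below 1, and the 557 pairs below 65% had a median gap of 2.60, with 141 below 1. Pairs share genes and are not independent, so these are descriptions. MAGEA12 and MAGEA2B, at 91.3%, differed by 0.116, while MAGEA12 and MAGEA6, at 87.3%, differed by 1.84, and SSX4B and SSX5, at 90.7%, by 4.26. MAGEA6 was 100% identical to MAGEA3 by this match, MAGEA2B to MAGEA2, SSX4B to SSX4, SSX2 to SSX2B, XAGE1A to XAGE1B and MAGEA9 to MAGEA9B. Values of such copies are uncertain as to which copy they read. Probe and transcript sequences were not compared, so whether a probe also reads other members of its family, those of SSX among them, was not tested. The 35 members had a median of 10 CpG sites in the 300-base window, against 14 for all genes, with 13 in the 11 members that were higher by at least 2, 9.5 in the 4 that were lower by at least 2 and 9.5 in the 14 that differed by less than 0.5.

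**Figure D3:**
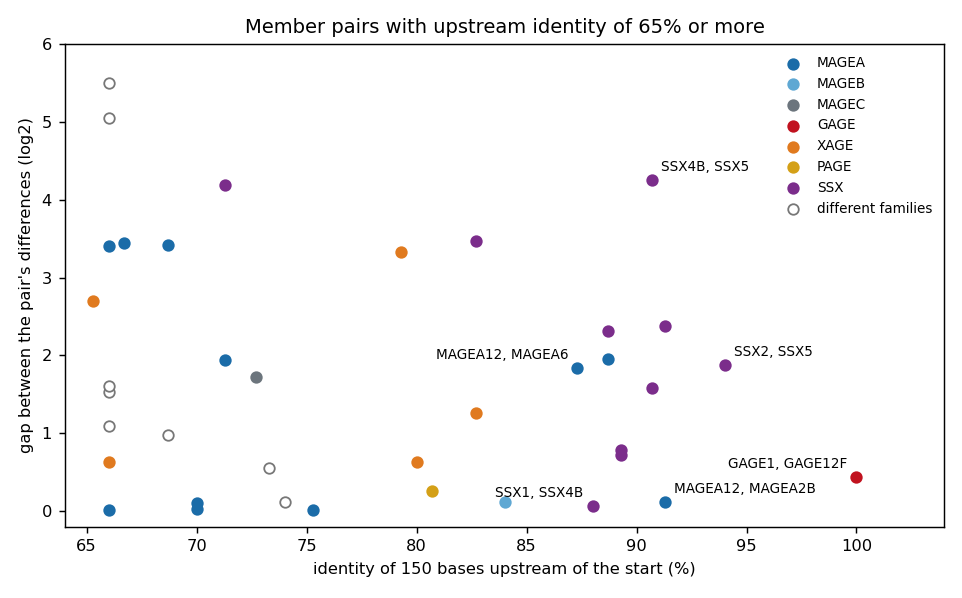
Gap between the differences of 2 measured members (log2) against the identity of the 150 bases upstream of their starts, for pairs at 65% or more, coloured by family. SSX pairs above 80% identity spread from a gap of 0.064 for SSX1 and SSX4B to 4.26 for SSX4B and SSX5.

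All 45 genes lie on chromosome X, among 823 measured genes there, and members that stand next to each other mostly shared a direction. In the order of measured genes, SSX6P, SSX1, SSX3 and SSX4B were higher, and SSX5 lay between SSX6P and SSX1 without a call. GAGE12F, GAGE1, PAGE1 and PAGE4 lay in an unbroken run of higher genes that also holds PPP1R3F (2.66) before them and USP27X-DT (2.11) and USP27X (1.05) after them, none of which belongs to a family. XAGE1A, SSX8P, SSX7 and SSX2 formed another run, with genes that were not called on either side. On the long arm, MAGEA2B, CSAG1, MAGEA12, CSAG4, CSAG3 and MAGEA6 formed an unbroken run of lower genes. The CSAG genes, of no family here, are themselves cancer-testis genes interleaved with MAGEA, and CSAG1 differed by -4.00 (SE 0.050), CSAG4 by -3.85 (SE 0.058) and CSAG3 by -3.18 (SE 0.065), each past the threshold in limma. CSAG1 gave 0.058, 0.00, 0.165 and 0.140 in the arrays labelled CFC1, against 4.01, 4.08, 4.10 and 4.15 in the mock arrays.

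Direction also changed within short distances. GABRE, which encodes the epsilon subunit of the GABA-A receptor, is the next measured gene after MAGEA4 and was higher by 3.75 (SE 0.066), where MAGEA4 was lower by a difference of -3.56. PNMA6A, a retrotransposon-derived gene next to MAGEA1, was higher by 3.32 (SE 0.054). The 38 nearest measured neighbours that are no members had 17 called higher, 7 lower and 14 not, with a median of 0.29. These neighbours include the cancer-testis genes CSAG1, CSAG4 and CSAG3, which are the 3 that were lower by at least 2. All 778 other genes of X had 307 called higher, 145 lower and 326 not, which is 39.5% and 18.6%, with a median of 0.091. Over all 21524 genes 29.7% were called higher and 28.2% lower, with a median of -0.086. The largest differences among the X genes of no family were those of ARMCX1 at 7.02, SH3BGRL at 6.28, GSPT2 at 6.09 and SLC25A43 at 5.68.

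**Figure D4:**
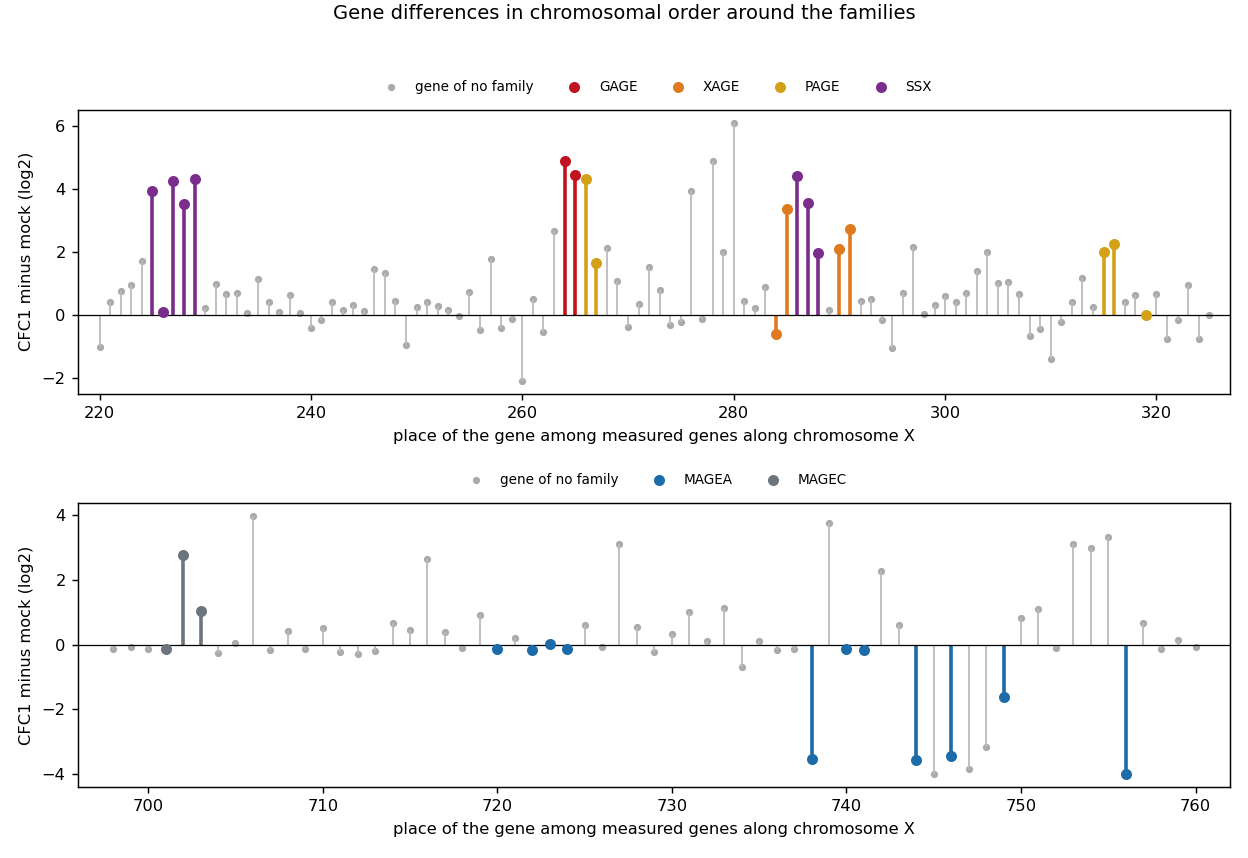
Difference of each gene, arrays labelled CFC1 minus mock arrays (log2), at its place among the measured genes of chromosome X, for the stretch with SSX, GAGE, PAGE and XAGE (upper) and the stretch with MAGEC and MAGEA (lower). Grey genes are those outside the symbol rule, with XAGE-4 and the type II MAGE genes MAGED1, MAGED4B, MAGED2 and MAGEH1 among them in the upper panel. The unbroken lower run in the lower panel holds MAGEA2B, CSAG1, MAGEA12, CSAG4, CSAG3 and MAGEA6.

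Cancer-testis genes of other families gave both directions. Of 33 measured, 6 were called higher, 10 lower and 17 not, which is 18.2% and 30.3% beside 29.7% and 28.2% of all genes, with a median of -0.14. SPA17, a sperm surface protein, was higher by 3.30 (SE 0.031), and NXF2, an mRNA export factor of germ cells, differed by -2.10 (SE 0.23). Of 18 other germ-line genes that are known to be silenced by promoter methylation, 3 were called higher, 0 lower and 15 not. That is 16.7% and 0%, beside 29.7% and 28.2% of all genes, with a median of -0.14. TEX14, a protein of germ-cell bridges, gave 3.60, 3.68, 3.68 and 3.64 in the arrays labelled CFC1, against 0.636, 0.690, 0.133 and 0.00 in the mock arrays. The other called genes were HSF2BP, a meiotic recombination factor in mouse, at 1.71 (SE 0.28), and TEX15, a factor of transposon silencing in mouse germ cells, at 1.31 (SE 0.042). The 15 others, DAZL, MAEL, SYCP1 and DDX4 among them, were not called, which does not show that they did not differ. DAZL, MAEL, DDX4 and PIWIL1 lay close to the negative control spot on each array, and the spot itself differed by -0.147. ASZ1, DPPA2 and STK31 also followed the spot, somewhat less closely. DDX4 gave -0.177, -0.418, -0.312 and 0.00 in the arrays labelled CFC1, against -0.093, -0.218, -0.192 and 0.266 in the mock arrays. The limit for tracking the spot was not applied to this list. How many of its genes were read apart from the spot was therefore not counted.

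A list of DNA methylation genes, germ-line gene repressors and factors that bind the promoters of these genes was called in both directions. It also holds the TET demethylation genes and the activators SP1, ETS1 and ETS2. Of 32 measured, 11 were higher, 14 lower and 7 not called, which is 34.4% and 43.8% beside 29.7% and 28.2% of all genes, with a median of 0.005. The lower count was 8 with quantile normalization and 9 with arrays centred on their median. MGA, the scaffold of the germ-line repressing Polycomb complex, gave -0.957, -1.137, -0.915 and -0.950 in the arrays labelled CFC1, against 1.23, 1.17, 1.199 and 1.26 in the mock arrays, and fell by 2.20 (SE 0.055). E2F6, which recruits that complex, rose by 0.92 (SE 0.037). DNMT3A, a de novo DNA methyltransferase, differed by -1.30 (SE 0.053), and ETS1, an activator that binds MAGEA promoters, by -1.80 (SE 0.10). For all 4 genes the arrays of the groups did not overlap and the limma adjusted p over all genes was below the threshold.

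Of 15 partners of the MAGE and SSX proteins, 6 were called higher, 5 lower and 4 not, which is 40% and 33.3% beside 29.7% and 28.2% of all genes, with a median of -0.036. TRIM28, the ligase and corepressor bound by MAGEA6 and MAGEC2, gave 0.179, 0.092, 0.160 and 0.220 in the arrays labelled CFC1, against -1.19, -1.19, -1.12 and -1.17 in the mock arrays, and rose by 1.33 (SE 0.038). RNF2, a Polycomb ubiquitin ligase, rose by 0.94 (SE 0.051), while SMC5 and SMC6, which form the complex that holds the MAGE protein NSMCE3, differed by -0.49 (SE 0.098) and -0.43 (SE 0.033). Of 10 type II MAGE genes, which are expressed in many tissues, 5 were called higher, 1 lower and 4 not, or 50% and 10% beside the same shares of all genes, with a median of 0.32. MAGEE1 at 0.93 (SE 0.033), NSMCE3 at 0.71 (SE 0.096) and MAGEH1 at 0.64 (SE 0.032) were higher, and MAGED2 differed by -0.45 (SE 0.037).

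Markers of the labelled cell type also differed between the groups, where 29.7% of all genes were called higher and 28.2% lower. Of 9 sympathetic neuroblast markers, 0 were called higher, 7 lower and 2 not, with a median of -0.62 and STMN2 at -3.92 (SE 0.036), CHGB at -2.48 (SE 0.044) and ISL1 at -2.18 (SE 0.061). Of 8 mesenchymal and fibroblast markers, 2 were higher and 5 lower, of 6 epithelial markers 2 and 3, of 4 haematopoietic markers 1 and 1, and of 8 testis somatic and germ cell markers 1 and 3. The one higher testis marker was STAR at 3.28 (SE 0.13). Centred values hold no level, so whether a marker is absent cannot be read, and the part of cell makeup or cell identity in the family differences was not tested.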

How the data were processed

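Total RNA of 8 samples was labelled with Cyanine3 and hybridised to one-color Agilent arrays, per the labels' protocols. The deposited value table was read as log2, in which each value is a difference from a baseline per probe. Of feature extraction, scaling, baseline and log base, each is not given in the sources used here. Leaving out 140 control spots gave 50599 probes, of which 31993 had 1 gene symbol and 18606 had none. Symbols were updated through RefSeq for GRCh38.p14, by accession for 28423 probes, by symbol for 3069 and by synonym for 479, and 22 kept their name. Genes are means of probes.

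Groups were compared with R 4.3.3 and limma 3.58.1 (functions lmFit and eBayes, all 8 arrays, no block), two-sided, with Benjamini-Hochberg adjustment over all 50599 probes for members and over all 21524 genes for lists, at 0.05. SE is that of limma. CFC1 also had an exact permutation test. The model was tested on simulated data. Promoter windows came from RefSeq and were matched in Python 3.11.15. Protein identity had been planned and was not computed, since protein sequences were not used here. No background flags were used, so folds are fitted values, and the number of arrays limits the precision.

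Members and gene lists were chosen with earlier results of these data known. Values per array are given for the 3 probes of a family with the largest difference and for probes of a gene that differ in sign. From lists, up to 4 called genes with the largest difference are named. SSX5 and other genes named beyond these were picked with their values in view. Alternatives were quantile normalization, median centring, array weights, a trend, unmoderated variances, the replicate number as a block, gene means in place of probes, and leaving out each array.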

Additional observations from a re-analysis of the deposited data

Results flagged for a closer look

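Among the 27 probes examined (CFC1 and the member probes named for their size or sign), 54 groups of 4 arrays were screened for 1 array far from the rest of its group, as a gap that takes more of the range than the 95% limit of Dixon. Chance gives about 1 in 20 such groups, and 3 were found. For MAGEA1, CFC1 replicate 3 gave -0.286, far below the other arrays labelled CFC1 and still below every mock array. For the MAGEA2B probe A_23_P148255, CFC1 replicate 2 gave 0.234, above the other arrays labelled CFC1. For the MAGEC2 probe A_33_P3264593, mock replicate 4 gave -1.592, below the other mock arrays.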

How the results depend on the processing

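The counts of member probes called kept within 1.5 times their value in all 15 alternatives, from 18 to 26 higher and from 6 to 9 lower, the lowest with gene means in place of probes, where 12456 genes were called in place of 21289 probes. Without 1 array, 20144 to 20472 probes were called. The CFC1 difference of -0.796 passed the threshold with gene means (-0.796, adjusted p = 0.0398) and array weights (-0.805, 0.046), and without 1 array it ran from -0.944 to -0.568, passing without CFC1 replicate 1 or mock replicate 4. Family medians moved by more than their spread over arrays with gene means for MAGEA (-0.164 in place of -1.16, where genes with several called probes count once) and SSX (3.74), and with quantile normalization for MAGEA (-1.38), MAGEC (1.199), GAGE (3.47), XAGE (2.57) and SSX (4.42). Without 1 array the SSX median ran from 4.14 to 4.25. Small differences that were never called changed sign. Without 1 array, MAGEB17 A_33_P3423504 ran from -0.453 to 0.008, MAGEB17 A_33_P3322594 from -0.26 to 0.378, CTAG2 from -0.293 to 0.13 and CTAG1A from -0.199 to 0.191. With gene means MAGEB17 was -0.093. With quantile normalization MAGEB17 A_33_P3322594 was -0.103, CTAG2 0.039 and CTAG1A 0.336, and CTAG1A was 0.038 with median centring and 0.049 with array weights. SSX2IP, whose probes were called in opposite directions, came to 0.066 as a gene mean. That is opposite in sign to its called probe A_23_P201376 (-0.31). The same replicate numbers gave correlations of deviations of 0.132, 0.197, 0.095 and 0.173, so they were not taken as pairs, although each array correlated best with its own number. With the number as a block, 25 member probes were called higher and 8 lower, MAGEC2 A_33_P3264593 (1.18) lost its call at an adjusted p of 0.0737, and 5 germ-line genes were called lower in place of 0. Among repressors, 8 were called lower with quantile normalization and 9 with median centring. The causes were not tested. Centring, the unstated baseline and the lack of background flags limit what can be said of levels, and near-identical copies limit which gene a probe reads.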

Other observations

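Outside the families on X, 2 cancer-testis genes on other chromosomes were examined after their values were seen. PRAME, a repressor of retinoic acid receptor signalling and a common antigen of neuroblastoma, gave 0.091, 0.388, -0.096 and -0.058 in the arrays labelled CFC1, against 2.32, 1.93, 1.67 and 2.38 in the mock arrays. It fell by 2.0 (SE 0.18), as the mean of 3 probes, in the same direction as the lower MAGEA genes. CTCFL, the germ-line paralogue of CTCF, gave 1.52, 1.53, 1.53 and 1.505 in the arrays labelled CFC1, against 0.316, 0.090, 0.00 and 0.113 in the mock arrays, and rose by 1.39 (SE 0.066). Of the DNA methylation genes, DNMT3A is given above. The maintenance enzyme DNMT1 differed by -0.117 (SE 0.042) and its partner UHRF1 by 0.26 (SE 0.041), both past the threshold in limma, and the de novo enzyme DNMT3B by 0.48 (SE 0.23), which was not called.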
